A study of Mus musculus with 7 samples.

Results

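The autophagy machinery and its cargo receptors were followed across stress conditions in cultured fibroblasts. The set holds 38 genes, taken by symbol out of 49382 genes in the deposited table, and all 38 were found. They were ordered by the step they serve: 5 genes of the ULK complex, 6 of the class III PI3K complex, 7 of membrane supply, 15 of conjugation with the LC3 and GABARAP genes, and 5 receptors. The samples were wild-type mouse embryonic fibroblasts (MEFs), prepared from embryos of day 13.5 to 14.4 without head and red tissue and used at passage 3 to 7. RNA was sequenced in 7 libraries, 1 for the untreated control and 1 for each of 6 stresses. Oxidative stress was 10 μM sodium arsenite for 3 h and osmotic stress was 100 mM added NaCl for 3 h. ER stress was 1 μM thapsigargin, an inhibitor of the calcium pump of the endoplasmic reticulum (ER), for 10 h. Hypoxia at 0.1% oxygen, and culture in medium without glucose (glucose depletion) or without glutamine (glutamine depletion), also lasted 10 h. The same control library served the 3 h and the 10 h conditions, and its own duration was not stated.

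Macroautophagy encloses cytoplasm in a double membrane, the autophagosome, which fuses with the lysosome. The ULK1 kinase complex starts the process, the lipid kinase complex around VPS34 (Pik3c3) marks the forming membrane with phosphatidylinositol 3-phosphate, and lipid transfer and scrambling proteins let it grow. An enzyme cascade then attaches LC3 and GABARAP proteins to the membrane, and receptors such as p62 (Sqstm1) tie ubiquitinated cargo to them. Much of the regulation is by phosphorylation and protein turnover, which mRNA levels do not show. Fibroblasts run autophagy at a basal rate and raise it when amino acids or energy run short.

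Values are TPM, a transcript's share of its library after correction for length, scaled to a total of 1000000 and summed per gene. Changes are differences of log2(TPM + 1) from the control, and more than 2-fold on that scale counted as a rise or fall. This scale understates changes of weakly expressed genes. Replicates were lacking in all groups, so differences could not be set against replicate error and no p-value is given. Depth is unknown because TPM keeps no read counts. In bulk RNA, fewer cells of a kind and less RNA per cell cannot be told apart. The table listed 19819 to 21154 genes above 0 TPM per library, and 12909 genes averaged 2 TPM or more and formed the background, 11300 of them protein-coding. For oxidative stress the median change of that background was -0.16, for osmotic stress -0.12, and elsewhere it lay within 0.1 of 0. All 7 fibroblast marker genes were at 22.6 TPM or more in every library, whereas the 6 macrophage, 4 endothelial, 4 epithelial and 6 erythroid markers summed to at most 13.7, 4.84, 0.991 and 1.13 TPM. Of the macrophage markers, Adgre1, Ptprc and Tyrobp stayed below 1 TPM in all libraries, Csf1r and Lyz2 reached 2.25 and 2.23 TPM, and Cd68 lay between 5.26 and 9.77 TPM. For 5 of the 6 conditions, a gene known to answer the treatment was read as a check of the label, and each passed 2-fold in the matching library. Hmox1, a target of NRF2, went from 266 to 6055 TPM with arsenite, Akr1b3 from 90.5 to 575 TPM with NaCl, Hspa5 from 1165 to 12611 TPM with thapsigargin, Txnip from 70.7 to 16.1 TPM without glucose and Bnip3 from 26.7 to 797 TPM in hypoxia. These genes were not specific to 1 library, since Hmox1 also rose to 1802 TPM in ER stress and Txnip fell to 7.22 TPM in osmotic stress. Of 4 targets of NFAT5, the osmotic stress factor, 2 rose more than 2-fold with NaCl, beside 3.08% of all background genes. No such gene was chosen for glutamine depletion.

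Few autophagy genes left the 2-fold band. Of the 38, all of which passed the filter of 2 TPM, 6 genes did so in at least 1 condition and 32 in none. The share of all background genes past 2-fold in at least 1 condition was not taken, so this count has no background beside it. Each condition alone does have one. In oxidative stress 1 rose (Sqstm1) and 1 fell (Atg4d), together 5.26%, where 8.78% of all background genes (3.94% up, 4.85% down) and 5.25% of the protein-coding ones changed. In osmotic stress 1 rose (Uvrag) and 1 fell (Ambra1), again 5.26%, beside 11.8% of all (3.08% up, 8.76% down) and 8.75% of protein-coding genes. ER stress raised 3 (Sqstm1, Atg13 and Wipi2) and lowered none, 7.89% beside 19.6% and 16.9%. By direction, 8.6% of all genes rose and 11% fell in ER stress. No autophagy gene passed 2-fold in glucose depletion, glutamine depletion or hypoxia, where the background shares were 4.24%, 6.41% and 6.21% of all genes and 1.04%, 3.75% and 2.95% of protein-coding genes. By direction, all genes divided into 1.83% up and 2.41% down in glucose depletion, 3.21% up and as many down in glutamine depletion, and 3.57% up and 2.64% down in hypoxia. The share of changed genes in the set was below that of all genes in every condition, but not below every background. In oxidative stress it equalled that of the protein-coding genes. Of the 33 autophagy genes with a mean of 10 TPM or more, 1 changed in oxidative stress (3.03%), 2 in osmotic stress (6.06%) and 3 in ER stress (9.09%), beside 3.88%, 5.51% and 15.7% of protein-coding genes at that level.

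**Figure D1:**
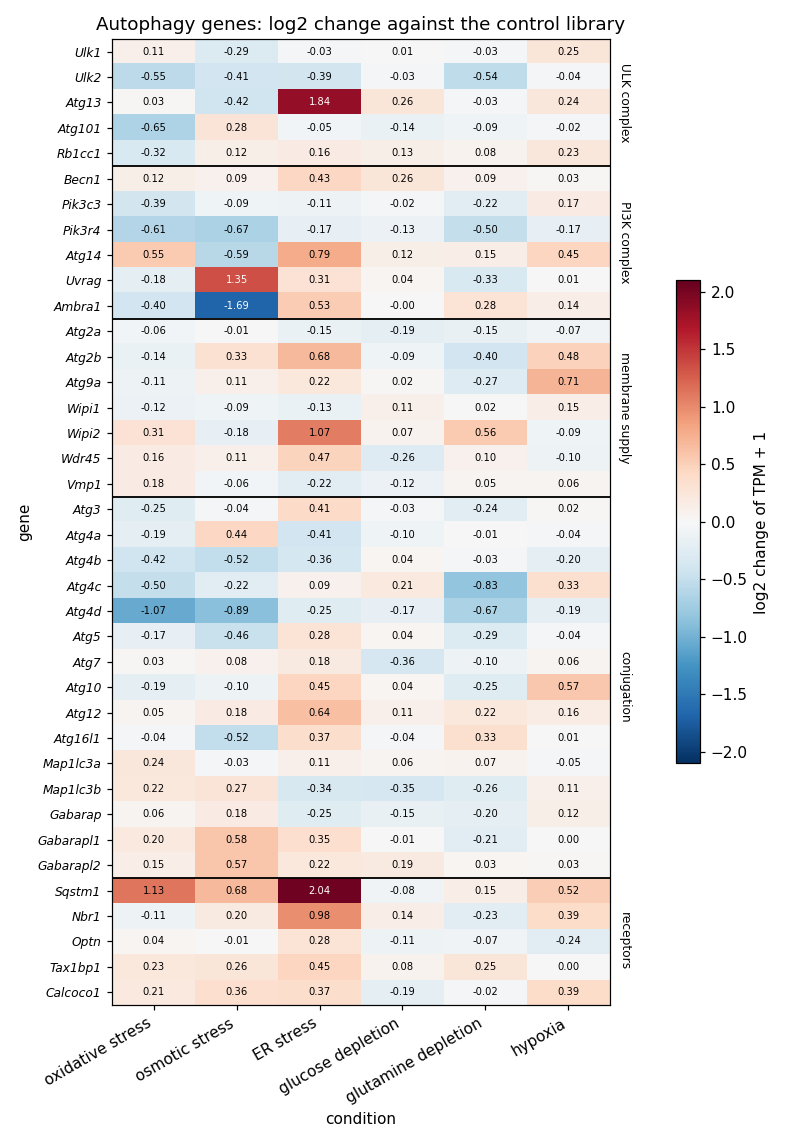
Heat map of the log2 change of TPM + 1 against the control library for the 38 autophagy genes (lines, grouped by step) in the 6 conditions (columns), with 1 library each and the value printed in each cell. The strongest red cells are Sqstm1 (2.04) and Atg13 (1.84) in ER stress and the strongest blue cell is Ambra1 (-1.69) in osmotic stress, while the glucose depletion column is nearly white.

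Many of the genes kept a narrow range across the 7 libraries. In 14 of the 38 genes (36.8%) the highest library was less than 1.5 times the lowest, beside 15.7% of all background genes. With a mean of 10 TPM or more it was 13 of 33 (39.4%), beside 22.2% of protein-coding genes. Wipi1, which binds phosphatidylinositol 3-phosphate, kept between 59.9 and 72.9 TPM, and the LC3 gene Map1lc3a between 101 and 123 TPM. Vmp1, an ER membrane protein that scrambles lipids, lay between 134 and 176 TPM. The median absolute log2 change of the set went from 0.11 in glucose depletion over 0.13 in hypoxia, 0.19 in oxidative stress, 0.21 in glutamine depletion and 0.26 in osmotic stress to 0.35 in ER stress. For the whole background it was 0.16, 0.23, 0.29, 0.25, 0.30 and 0.45 in the same order.

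Below 2-fold, the sets of values were not centred alike in all conditions. In ER stress 25 of 38 genes stood above the control, beside 49.9% of all background genes, and the median change was 0.25 against 0.00. In hypoxia 26 of 38 stood above the control, beside 42.8%, with a median of 0.04 against -0.05. Oxidative stress, osmotic stress and glucose depletion each had 18 of 38 above the control, beside 32.6%, 36.7% and 44.5%. Glutamine depletion had 14 of 38 above it, beside 38.3%, and a median of -0.05 against -0.09. The ER stress library was the highest of the 7 for 16 of the 38 genes, beside 33.2% of all background genes, and the hypoxia library for 8, beside 15.7%. The glutamine depletion library was highest for none, beside 9.13%. All of these conditions are set against the same control library. Fibroblast marker genes moved in the ER stress library too, with a median log2 change of -0.86 and Col3a1 (-2.07) and Pdgfrb (-1.15) past 2-fold. The part of this in the autophagy values was not tested.

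**Figure D2:**
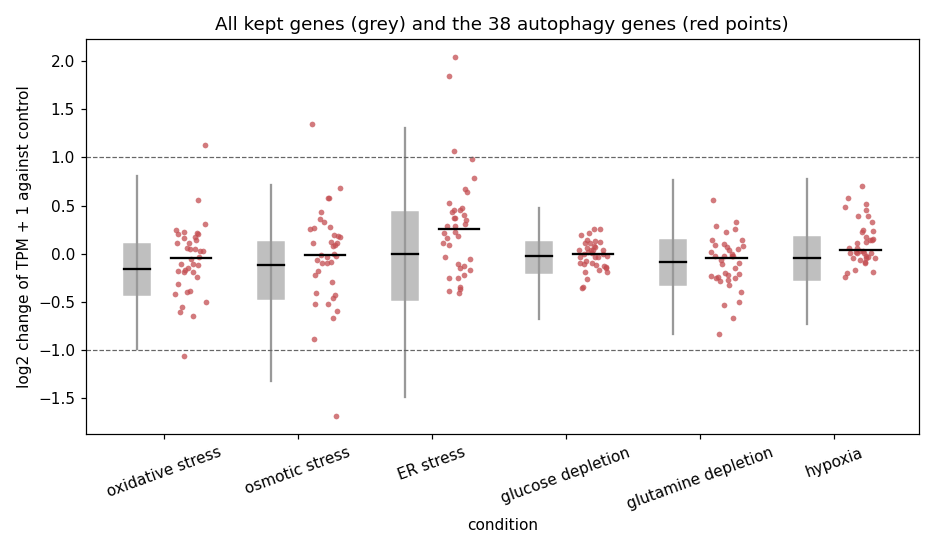
Log2 change of TPM + 1 against the control in each condition for the 12909 background genes (grey: bar for the middle 50%, line from the 5th to the 95th percentile, black median) and for the 38 autophagy genes (red points, black median). Dashed lines mark 2-fold; 3 points lie above the upper line in ER stress, and in glucose depletion all points stay well inside.

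Sqstm1 had the largest change and led the receptors. It encodes p62, which binds ubiquitin and LC3 and also holds KEAP1, the inhibitor of NRF2, and it lies on chromosome 11 from 50199366 to 50210827 (GRCm38, minus strand). Its level was 365 TPM in the control, 801 in oxidative stress, 587 in osmotic stress, 1507 in ER stress, 523 in hypoxia, 346 without glucose and 404 without glutamine. The ER stress library stood highest, followed by oxidative stress, and the glucose depletion library was lowest and close to the control. The log2 change was 2.04 in ER stress and 1.13 in oxidative stress, both past 2-fold, and 0.68, 0.52, 0.15 and -0.08 in osmotic stress, hypoxia, glutamine depletion and glucose depletion. Against the median of the other 6 libraries in place of the control, the value in oxidative stress was 0.80 and no longer past 2-fold. Of 7 NRF2 target genes, 6 rose in oxidative stress, 3 in ER stress and 2 in glutamine depletion, beside 3.94%, 8.6% and 3.21% of all background genes. None rose in osmotic stress, glucose depletion or hypoxia, beside 3.08%, 1.83% and 3.57%. The pair in glutamine depletion was Srxn1 (log2 change 1.13) and Txnrd1 (1.19). Of 6 target genes of ATF4, 4 rose in ER stress, beside 8.6% of all background genes. In oxidative stress, glutamine depletion and hypoxia 2 rose, beside 3.94%, 3.21% and 3.57%. In osmotic stress 2 rose and 3 fell, beside 3.08% and 8.76%, and none rose in glucose depletion, beside 1.83%. Whether NRF2, ATF4 or another regulator had a part in the Sqstm1 values was not tested.

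In ER stress Sqstm1 alone made up most of the difference in summed level. Summed over the 38 genes, the control held 2694 TPM and the ER stress library 3964 TPM, a ratio of 1.47, but without Sqstm1 the ratio was 1.05. The share of Sqstm1 in the sum was 13.5% for the control and 25.1% for oxidative stress, and was highest for ER stress. In ER stress it passed Gabarap, the most abundant of the 38 genes in every other library.

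Of the other receptor genes, none passed 2-fold. Nbr1, a receptor with domains like those of p62, came nearest, with a log2 change of 0.98 in ER stress, from 45.9 to 91.4 TPM. It lay at 42.6, 52.7, 50.8, 39.1 and 60.5 TPM in oxidative stress, osmotic stress, glucose depletion, glutamine depletion and hypoxia. Thus Nbr1 in ER stress stood just outside the 2-fold rule, and Wipi2 in ER stress (1.07) and Atg4d in oxidative stress (-1.07) just inside it. Tax1bp1, a receptor for ubiquitinated cargo, ranged from 78.7 to 108 TPM, Calcoco1, a receptor for the ER and Golgi, from 20.4 to 31.0 TPM, and Optn, which links ubiquitin to LC3, from 15.3 to 22.5 TPM. All 5 receptor genes were above the control in ER stress, with a median of 0.45, beside 49.9% of all background genes. In oxidative stress, osmotic stress and hypoxia 4 of 5 were above it, beside 32.6%, 36.7% and 42.8%. In glucose and glutamine depletion 2 of 5 were, near the 44.5% and 38.3% of all background genes. With 5 genes such counts are coarse.

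**Figure D3:**
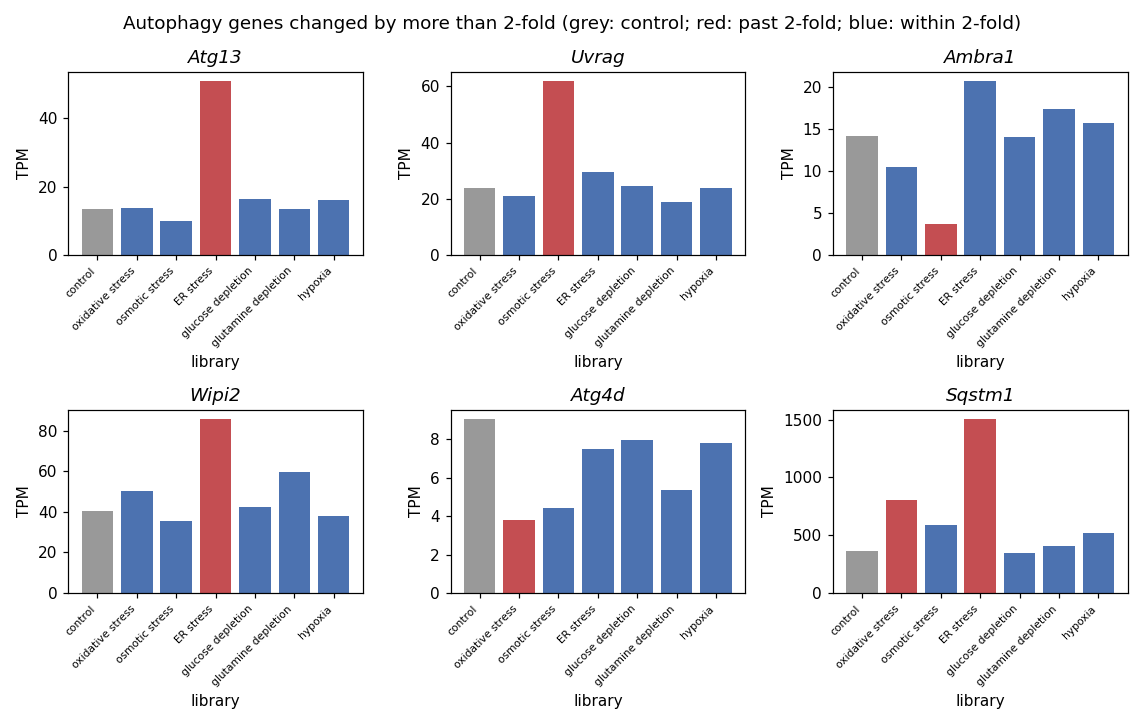
TPM in each of the 7 libraries (bars from 0, 1 library each, no error bars) for the 6 autophagy genes past 2-fold in any condition; grey is the control, red a condition past 2-fold and blue one within it. Atg13 (51.1 TPM) and Uvrag (62.1 TPM) each stand out in a single library, while Sqstm1 is raised in ER and oxidative stress.

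Within the ULK complex, ER stress raised Atg13 and no other subunit. ATG13 is the adaptor that binds ULK1, FIP200 and ATG101, and its gene lies on chromosome 2 from 91674618 to 91710576 (minus strand). Atg13 was at 13.5 TPM in the control, 13.8 in oxidative stress, 9.84 in osmotic stress, 51.1 in ER stress, 16.1 in hypoxia, 16.4 without glucose and 13.3 without glutamine. The ER stress value was 3.77 times the control (log2 change 1.84), and the other 6 libraries lay between 9.84 and 16.4 TPM. The kinase gene Ulk1 stayed between 13.5 and 20.1 TPM, and its log2 change in ER stress was -0.03. Its paralog Ulk2 ranged from 19.1 TPM in oxidative stress to 28.5 TPM in the control, and was below the control in every condition, by -0.55 at most. Rb1cc1, which encodes the scaffold FIP200, was between 71.9 and 105 TPM. Atg101, the partner that stabilises ATG13, was between 13.6 TPM in oxidative stress and 26.7 TPM in osmotic stress, with log2 changes of -0.65 and 0.28.

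Promoter sequence from RefSeq (GRCm38.p6) was searched for 4 short motifs in a window of 300 bases, from 250 before to 50 after the annotated start, on both strands. Of the 38 genes, 32 had such a window, and 1 window per gene was used. The shares of all promoters were taken over 32851 windows, not limited to 1 per gene or to the background genes. The 2 sets are therefore unlike, and their shares are not a matched comparison. The antioxidant response element TGACNNNGC was in 4 of the 32 (Atg13, Map1lc3b, Ulk2 and Vmp1) and in 12.4% of all promoters, and the CLEAR box core TCACGTG, which TFEB and TFE3 bind, in 3 of the 32 (Atg14, Atg3 and Atg7) and in 3.77%. The amino acid response element TGATGNAA was in none of the 32 and in 3.97% of all promoters. The hypoxia core ACGTG, which also lies within TCACGTG, was in 13 of the 32 and in 19.6%. The parts upstream of the start and outside annotated exons are shown for Sqstm1, Atg13 and Uvrag, whose mRNAs had the largest rises, with matches in capitals. The Wipi2 window falls within an annotated exon and is not shown. In the Sqstm1 window no motif matched, but sequence farther from the start was not searched, so motifs there would be missed. Atg13 had GCCGCGTCA, the antioxidant form on the opposite strand, from -242 to -234, and Uvrag had CACGT, the hypoxia core on the opposite strand, from -67 to -63. These are matches of letters and not known binding sites.
Sqstm1, chr11:50210828-50210889, minus strand: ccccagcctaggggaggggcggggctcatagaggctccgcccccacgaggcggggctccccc
Atg13, chr2:91710593-91710842, minus strand: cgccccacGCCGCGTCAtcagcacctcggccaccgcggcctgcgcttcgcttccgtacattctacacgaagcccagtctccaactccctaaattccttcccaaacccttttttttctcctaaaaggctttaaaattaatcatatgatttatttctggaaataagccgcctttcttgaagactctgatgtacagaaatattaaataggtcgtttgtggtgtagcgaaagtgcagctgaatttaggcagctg
Uvrag, chr7:99141145-99141394, minus strand: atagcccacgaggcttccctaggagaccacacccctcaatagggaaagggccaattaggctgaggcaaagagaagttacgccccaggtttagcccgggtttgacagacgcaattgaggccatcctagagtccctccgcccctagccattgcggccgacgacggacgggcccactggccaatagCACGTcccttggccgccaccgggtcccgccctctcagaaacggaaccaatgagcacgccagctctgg

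Among the genes listed with the PI3K complex, osmotic stress raised Uvrag and lowered Ambra1 by more than 2-fold. UVRAG and ATG14 are alternative partners of Beclin 1 in this complex: ATG14 directs it to autophagosome formation, and UVRAG to endosomes. Uvrag (chromosome 7, 98885021 to 99141141, minus strand) had 23.8 TPM in the control, 20.8 in oxidative stress, 62.1 in osmotic stress, 29.6 in ER stress, 23.9 in hypoxia, 24.5 without glucose and 18.8 without glutamine. The osmotic stress library was well above the other 6 (log2 change 1.35). Ambra1, which encodes a regulator that binds Beclin 1 and lies on chromosome 2 (91730134 to 91918849, plus strand), had 14.1 TPM in the control, 10.5 in oxidative stress, 3.70 in osmotic stress, 20.8 in ER stress, 15.7 in hypoxia, 14.1 without glucose and 17.4 without glutamine. It had its lowest level in osmotic stress (log2 change -1.69) and its highest in ER stress (0.53).

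Atg14 was the most weakly expressed of the complex, at 4.54 TPM in the control, 7.13 in oxidative stress, 2.68 in osmotic stress, 8.55 in ER stress, 6.56 in hypoxia, 5.02 without glucose and 5.13 without glutamine. Like Ambra1 it was lowest in osmotic stress (log2 change -0.59) and highest in ER stress (0.79), within 2-fold in both. The core subunits varied less. Becn1, which encodes Beclin 1, was between 93.6 and 126 TPM, and the kinase gene Pik3c3 between 8.28 and 12.7 TPM. Pik3r4, which encodes the regulatory subunit VPS15, was highest in the control at 14.4 TPM, with log2 changes of -0.61 in oxidative stress, -0.67 in osmotic stress and -0.50 in glutamine depletion. Oxidative stress, the other condition of 3 h, gave log2 changes of -0.18 for Uvrag, -0.40 for Ambra1 and 0.55 for Atg14.

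Of the genes that build and supply the membrane, Wipi2 alone passed 2-fold. WIPI2 reads phosphatidylinositol 3-phosphate and recruits ATG16L1, and its gene lies on chromosome 5 from 142627698 to 142670588 (plus strand). Wipi2 had 40.4 TPM in the control, 50.2 in oxidative stress, 35.6 in osmotic stress, 85.9 in ER stress, 37.8 in hypoxia, 42.5 without glucose and 59.8 without glutamine. The ER stress library was highest (log2 change 1.07) and glutamine depletion second (0.56). Its paralog Wipi1 had a log2 change of -0.13 in ER stress, and Wdr45, of the same family, 0.47.

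Atg9a, the lipid scramblase carried by the vesicles that seed autophagosomes, had the largest change of the set in hypoxia, 39.8 TPM against 24.0 TPM in the control (log2 change 0.71). The gene Ankzf1 overlaps Atg9a on the opposite strand, and it went from 10.9 to 17.0 TPM. Strand was not used in the counting as far as the methods state, so reads in the overlap cannot be told apart. The lipid transfer gene Atg2b had log2 changes of 0.68 in ER stress and 0.48 in hypoxia and -0.40 in glutamine depletion. Its paralog Atg2a stood on 2 rows with identical values of 3.99 to 4.71 TPM, was counted once, and stayed within -0.19 of the control.

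In the conjugation step no gene rose by more than 2-fold in any condition. Atg4d fell in oxidative stress. ATG4 proteases trim LC3 and GABARAP before conjugation and release them from membranes afterwards. Atg4d (chromosome 9, 21265293 to 21277772, plus strand) had 9.07 TPM in the control, 3.81 in oxidative stress, 4.45 in osmotic stress, 7.47 in ER stress, 7.82 in hypoxia, 7.98 without glucose and 5.34 without glutamine. The control was the highest library, and oxidative stress the lowest (log2 change -1.07), followed by osmotic stress (-0.89) and glutamine depletion (-0.67). The oxidative stress value was -0.68 with a pseudocount of 5 TPM, -0.91 after centring on all genes and -0.85 against the median of the other 6 libraries, so its place past 2-fold depended on these choices. Kri1 overlaps Atg4d on the opposite strand and was at 31.0 TPM in the control, 24.4 in oxidative stress, 13.1 in osmotic stress and 74.3 in ER stress.

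The other proteases of the family differed in their lowest library. Atg4c was lowest in glutamine depletion, at 3.64 TPM against 7.24 TPM in the control (log2 change -0.83). Atg4b, the most abundant, ranged from 39.5 TPM in osmotic stress to 58.7 TPM in glucose depletion, and Atg4a from 12.3 TPM in ER stress to 22.9 TPM in osmotic stress. The E1-like Atg7 lay between 13.3 and 19.8 TPM and was lowest in glucose depletion (log2 change -0.36). The E2-like Atg3 ranged from 57.3 to 90.5 TPM and Atg10, the E2 for ATG12, from 4.35 to 8.45 TPM.

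The ubiquitin-like Atg12 and its partners Atg5 and Atg16l1, which together form the E3-like complex, each had their highest value in ER stress. Their log2 changes there were 0.64, 0.28 and 0.37. Atg12 had its lowest value in the control, 25.8 TPM, and reached 40.8 TPM. Atg5 and Atg16l1 were lowest in osmotic stress, at 15.8 and 14.9 TPM, with log2 changes of -0.46 and -0.52.

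The LC3 and GABARAP genes, whose products become the lipid-linked tags of the autophagosome, kept one order of level with few exchanges. Gabarap was at 805 TPM in the control, 838 in oxidative stress, 910 in osmotic stress, 677 in ER stress, 874 in hypoxia, 725 without glucose and 699 without glutamine. It made up between 60.6% and 66.0% of the summed level of the 5 genes. Map1lc3b was at 187, 217, 225, 147, 201, 146 and 156 TPM in the same order of libraries. Both had lower values in ER stress, glucose depletion and glutamine depletion than in the control, by log2 changes of -0.15 to -0.35. A second annotated gene, Gm20388, covers Map1lc3b on the same strand and held 52.2 to 111 TPM, so the split of reads between them is uncertain.

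Map1lc3a was at 104, 123, 102, 112, 101, 109 and 110 TPM in that order, the flattest of the 5. Gabarapl1 was at 89.3, 103, 134, 114, 89.5, 88.8 and 76.8 TPM, and Gabarapl2 at 56.7, 62.8, 85.0, 66.4, 57.8, 65.1 and 58.1 TPM. Both were highest in osmotic stress, with log2 changes of 0.58 and 0.57. Exchanges of order occurred between Map1lc3a and Gabarapl1, the latter being higher in osmotic and ER stress. The 5 genes together summed to 1242 TPM in the control, 1456 in osmotic stress, 1117 in ER stress and 1099 in glutamine depletion. The ratio of Sqstm1 to this sum was 0.294 for the control, 0.595 for oxidative stress, 0.403 for osmotic stress and 1.35 for ER stress.

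Further genes of the pathway, from lists written with earlier results of these data known, were read in the same way. Of 14 additional machinery genes, all kept, 1 rose in ER stress and 1 fell in osmotic stress, 7.14% in each, below the 19.6% and 11.8% of all genes. Tmem41b, an ER scramblase that works with VMP1, went from 85.1 to 232 TPM in ER stress (log2 change 1.44), where Vmp1 had -0.22. Nrbf2, a subunit of the ATG14 form of the PI3K complex, went from 26.6 to 8.35 TPM in osmotic stress (-1.56), the condition in which Ambra1 fell.

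Of 15 genes for fusion with the lysosome, 1 rose and 1 fell in ER stress (13.3%) and 1 fell in osmotic stress (6.67%), again below the 19.6% and 11.8% of all genes. Epg5, a tether between the organelles, went from 5.91 to 17.6 TPM (log2 change 1.43), and Vamp8, a SNARE of the lysosomal membrane that stands on a pair of identical rows, from 53.8 to 26.0 TPM (-1.02). Vps18, a core subunit of the tethering complex HOPS, went from 18.0 to 6.78 TPM in osmotic stress (-1.29). Of 16 receptors for mitochondria, ER and other organelles, 15 were kept, and 2 rose, both in hypoxia (13.3%, beside 6.21% of all genes changed there). These were the mitophagy receptor genes and HIF targets Bnip3 (log2 change 4.85) and Bnip3l, from 111 to 403 TPM (1.86). Among the cargo receptor genes of the main set the highest value in hypoxia was the 0.52 of Sqstm1.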

How the data were processed

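RNA-seq libraries of MEFs (1 per condition) were made by the study with a stranded, poly(A)-based kit and sequenced as paired ends. Per the methods and the submitters' processing notes, the authors ran kallisto 0.43.1 at default settings against the mouse cDNA set of Ensembl release 90 (GRCm38). They deposited TPM per gene, each being the sum of its transcripts. As TPM are shares, a gene also moves when others take more or less of the library, and mitochondrially encoded genes took 5.09% to 9.25%.

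From the deposited TPM, log2(TPM + 1) was formed and the control subtracted. Background genes had a mean of 2 TPM or more. The 2-fold rule is the study's. With 1 library per group no test was possible. The autophagy genes and lists were chosen with earlier results of these data known. Every gene of the set could be named. All libraries are given for Sqstm1, for genes past 2-fold, for the largest change of each step and for LC3 and GABARAP genes, and the others by range. Of the context lists, up to 3 genes past 2-fold are named, with 5 treatment genes. Tfe3, Tfeb, Keap1, Foxo3 and the marker genes lie outside this rule and were chosen after their values were seen.

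Gene locations, types and overlaps came from GENCODE M21 (GRCm38) by Ensembl identifier, and promoters from RefSeq. Retreg1 was matched by identifier under its older symbol. One gene of the organelle receptor list is not reported here. Protein sequences were not used here. Alternatives were pseudocounts of 0.1 and 5 TPM, no filter or 10 TPM, centring, removal of mitochondrial genes, another reference, and 1.5-fold and 3-fold rules. The log2 change and the 2-fold rule were run on simulated data with large changes planted in well expressed genes. That checks the code only and does not bear on weakly expressed genes or on the other steps. Tables were handled with pandas 2.3.3 under Python 3.11.15.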

Additional observations from a re-analysis of the deposited data

How the results depend on the processing

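Counts of autophagy genes past 2-fold were taken as moved when they differed by more than 1.5 times, and medians when they differed by 0.1 or more on the log2 scale. In oxidative stress the count of 2 became 1 with a pseudocount of 5 TPM, 1 with a mean of at least 10 TPM and 1 after centring, since Atg4d dropped out in each, and 0 against the median of the other 6 libraries, where Sqstm1 dropped out too. With the 1.5-fold rule it was 4 in oxidative stress, 6 in osmotic stress, 7 in ER stress, 2 in glutamine depletion and 1 in hypoxia, against 2, 2, 3, 0 and 0 with 2-fold. With the 3-fold rule there were 0 for oxidative stress and 1 for osmotic stress. Shares of all background genes were not taken at 1.5-fold or 3-fold. The 2-fold shares given above are at another threshold and do not serve for these counts. Centring moved the median of the set to 0.11 in oxidative stress and 0.11 in osmotic stress, from -0.05 and -0.01. The other 83 of 96 values for the set kept their place by these limits. Among them, the count of 2 in osmotic stress became 3 with a pseudocount of 0.1 TPM, where Atg4d reached -1.01. No gene past 2-fold changed direction. Smaller values did change sign, in 16 of 642 comparisons of a gene and 7 of 42 of a median. Against the median of the other 6 libraries, Sqstm1 in glutamine depletion went from 0.15 to -0.46, and Atg4d from -0.25 to 0.18 in ER stress, from -0.17 to 0.29 in glucose depletion and from -0.19 to 0.27 in hypoxia. No paired analysis was possible because each condition had 1 library. With no replicates and no read counts, neither biological nor counting error can be given.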

Other observations

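Regulators upstream of the autophagy genes, from a list of 21 genes of which 20 were kept, had 3 rises and 1 fall in ER stress, a share (20%) like the 19.6% of all genes changed there. Atf4 went from 276 to 773 TPM (log2 change 1.48), Ddit3 from 136 to 1870 TPM (3.77) and Trib3 from 30.8 to 184 TPM (2.54) in that library. Tbk1, the kinase that phosphorylates p62 and optineurin, went from 34.5 to 16.0 TPM (-1.06). In osmotic stress Ddit3 and Trib3 fell, to 48.9 and 6.96 TPM (10% of the list, beside 11.8% of all genes), and in hypoxia Trib3 rose to 71.1 TPM (5%, beside 6.21%).

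The following genes were chosen after their values were seen. Of the transcription factors that bind the CLEAR box, Tfe3 was at 37.8 TPM in the control, 53.6 in oxidative stress, 59.8 in osmotic stress, 71.8 in ER stress, 44.3 in hypoxia, 39.3 without glucose and 65.8 without glutamine, above the control in all 6 conditions and within 2-fold in each. Tfeb was far lower, between 3.19 TPM in ER stress and 8.38 TPM in glutamine depletion. Keap1, the partner of p62 and inhibitor of NRF2, had its lowest values in oxidative stress (17.0 TPM) and glutamine depletion (18.1 TPM), against 34.2 TPM in the control, with log2 changes of -0.97 and -0.88. Foxo3, a transcription factor for autophagy genes, was at 28.9 TPM in hypoxia against 13.9 TPM in the control. Its log2 change of 1.00 was just inside the band of 2-fold.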
